A study of Cubamyces sp. BRFM 1775 with 14 samples.

Results

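Of 1052 genes measured in mycelium of Leiotrametes sp. BRFM1775 on 5 carbon sources, 229 (21.8%) differed by less than 1 log2 unit between the substrate with the highest and the substrate with the lowest value. These steady genes were selected on the deposited values themselves. The table gives 1 value per substrate and gene, as log2 of normalised reads plus 1, and a gene was taken when its highest minus its lowest of the 5 values was below 1. The range of the values is therefore what chose the genes and is not a finding. The genes carry protein numbers and the table does not pair these with names, so no function is given for any of them.

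The strain belongs to the Polyporales, an order rich in wood decayers. Its cultures were shaken in flasks at 120 rpm and 30 °C for 3 days, in 100 ml of a salt medium with yeast extract and thiamin. Mycelium was frozen with the remaining solid substrate, and polyadenylated RNA was sequenced. Maltose cultures held 20 g/l maltose. Cultures on Avicel, a microcrystalline cellulose, on wheat straw or on ground pine held 2.5 g/l maltose and 15 g/l of the substrate. Aspen cultures held 15 g/l milled aspen, and their maltose concentration is misprinted in the labels. A value that differs between maltose and another substrate can thus go with the substrate or with the amount of maltose, and the design cannot tell these apart. The labels name 14 samples, 3 on each substrate except wheat straw with 2. The read numbers of single libraries were worked out from the deposited means and account for 13, with 2 on cellulose and 2 on wheat straw. Library numbers below order the libraries of a substrate by size factor, from the smallest, and do not match replicate numbers in the labels. The labels do not say whether each replicate was a flask of its own, so the spread between libraries, and every p-value resting on it, may be technical.

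White-rot fungi such as those of the Trametes group decay wood by secreting enzymes that cut cellulose, hemicellulose and lignin. Transcripts of such enzymes are held low by easily used sugars and rise when plant cell walls are the carbon source. Other transcripts serve needs that every growing hypha has, among them protein synthesis, the cytoskeleton and energy metabolism, and these tend to vary less between media. Genes of steady level are used as internal references in quantitative PCR, where a change in the reference would be read as a change in every gene set against it.

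The 229 steady genes spread over nearly the whole scale of read numbers. Their mean over the 5 columns ran from 2.42 to 16.82, with quartiles of 6.39, 8.79 and 10.59. Over all 1052 genes these quartiles were 6.35, 9.05 and 11.23. The values are not divided by gene length, so they measure how many reads a gene received and not how its transcript ranks against others. Of genes with a mean below 5, 24 of 137 (17.5%) were steady. The share was 27.7% of the 188 genes between 5 and 7, 22.5% between 7 and 9, 23.2% between 9 and 11 and 19.6% between 11 and 13. It was lowest, at 14 of 91 genes (15.4%), from 13 upward. Steady genes were thus found in every class, and 2 of them had a mean below 3. At the top of the scale, 8 of the 48 genes with a mean of at least 14 were steady. Taken back from the log scale, the steady genes made up 19.5% of the summed values on maltose and between 12.1%, on pine, and 14.95%, on aspen, on the other substrates. Such sums weigh most the genes with the most reads, so they do not describe the steady genes as a set. Gene 1330293 stood at 16.85 on maltose and 17.25 on pine, and gene 1323872 at 16.44 and 15.90.

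**Figure D1:**
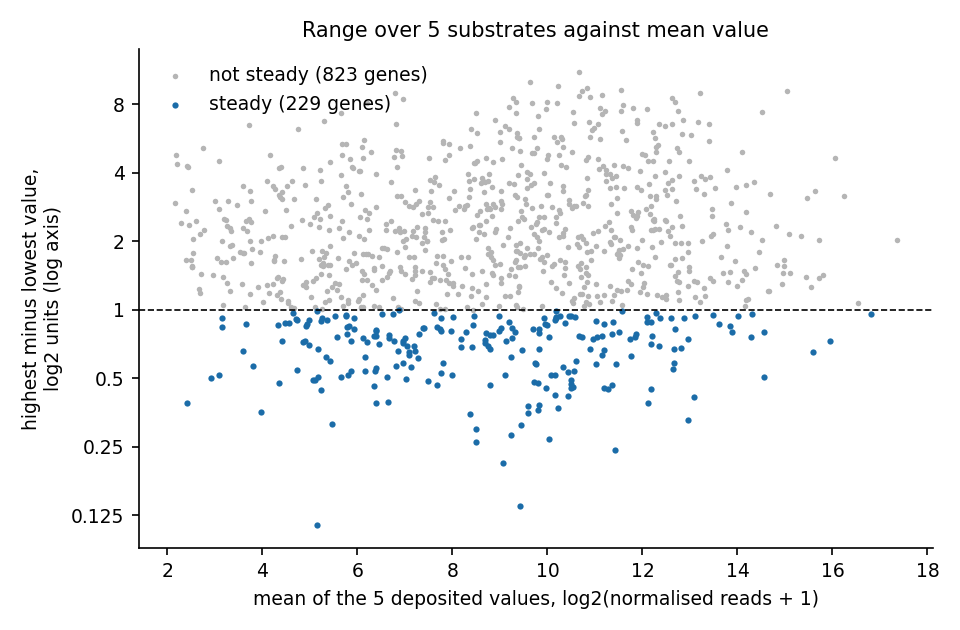
Each point is a gene, with the mean of its 5 deposited values on the x axis, as log2(normalised reads + 1), and its highest minus lowest value on the y axis, in log2 units on a log axis. The 229 steady genes in blue lie under the dashed line at 1, by the rule that chose them, and have means from 2.42 to 16.82.

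Most steady genes lay in the upper part of the permitted range. The median highest-minus-lowest value was 0.73, with quartiles of 0.53 and 0.85, and 105 of the 229 genes lay between 0.75 and 1. A range below 0.5 was reached by 45 genes and a range below 0.25 by 4. Over all genes the median range was 1.77, another 351 genes lay between 1 and 2, 310 between 2 and 4, and 162 at 4 or above. The threshold fell within a continuous distribution and not in a gap. Gene 1436490 was just inside at 0.9998, with values of 7.30 on aspen, 7.24 on wheat straw, 7.05 on pine, 6.51 on cellulose and 6.30 on maltose. Gene 1325613 was inside at 0.98. Gene 1280292 was just outside at a range of 1.0001, between 8.85 on maltose and 7.85 on cellulose. Its cellulose libraries stood at 7.13 and 8.57, and its range was 0.61 without cellulose library 1 and 1.72 without cellulose library 2. Leaving out maltose library 1 or 2 also brought it inside, at 0.97 and 0.91. Gene 58958 was just outside at 1.003, between 7.43 on pine and 6.43 on cellulose, and inside without pine library 3 (0.95) or cellulose library 2 (0.97).

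The spread between libraries of the same substrate was not read by the rule directly, although the rule read the means of the same libraries. Over the steady genes the median standard deviation (SD) within substrates, pooled over the libraries known for a gene, was 0.20 log2 units. It was 0.35 over the 823 genes that were not steady. The steady genes had the smaller median on every substrate. On maltose it was 0.14 against 0.19 over all genes with known libraries, and on cellulose 0.15 against 0.29. On wheat straw it was 0.11 against 0.17, on pine 0.19 against 0.30 and on aspen 0.19 against 0.23. Because the medians of 2 and of 3 libraries are not on an equal footing, substrates are not ranked here.

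Steady genes had the smaller median spread within each class of read number. Below a mean of 5 the median pooled SD was 0.41 for steady genes and 0.59 for the others. It was 0.28 against 0.41 between 5 and 7, 0.22 against 0.32 between 7 and 9 and 0.16 against 0.32 between 9 and 11. From 11 to 13 it was 0.14 against 0.28, and from 13 upward 0.12 against 0.26. Of the steady genes, 13 of 39 from 11 to 13 and 0 of 14 from 13 upward were known in all 13 libraries. The SD of the rest came from fewer libraries. Over genes known in all 13 libraries it was 0.165 against 0.232 from 11 to 13, with 13 steady genes and 15 others. No test is given for this contrast, since a gene whose libraries scatter also has less certain means and is less readily chosen. Counting error sets a floor under these SDs. From the read numbers alone, Poisson counting would give a median SD of 0.32 for steady genes below 5, of 0.19 between 5 and 7 and of 0.10 between 7 and 9. For the other genes it would give 0.41, 0.21 and 0.11 in these classes, so below 5 the genes compared also differed in counting error. Between 9 and 11 it would give 0.05 for steady genes and 0.06 for the others. In the lowest class the observed SD of steady genes was 0.41 against 0.32 from counting, and between 9 and 11 it was 0.16 against 0.05. The counting figures cover sampling of reads only.

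**Figure D2:**
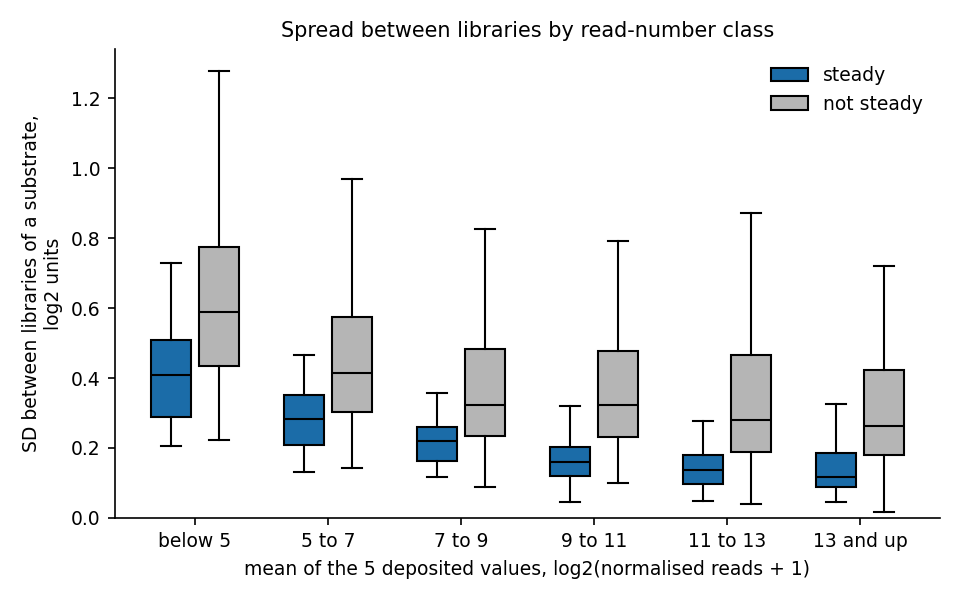
Boxes give the median and quartiles, over genes, of the SD between libraries of a substrate in log2 units, by class of the mean of the 5 deposited values, for steady genes in blue and the other genes in grey. Whiskers reach to the farthest gene within 1.5 box lengths. The blue median falls from 0.41 in the lowest class to 0.12 in the highest and lies below the grey one in each class. From a mean of 11 upward most genes were known in fewer than 13 libraries.

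Reads of all 13 libraries were known for 188 of the 229 steady genes. The other 41 lacked at least 1 substrate, mostly because of high read numbers, and 40 of them had a mean of at least 11. Across the 13 single libraries the steady genes varied by a median of 1.13 from lowest to highest, with quartiles of 0.92 and 1.36. All 13 values lay within 1 log2 unit for 61 of the 188 genes (32.4%), and within 1.5 for 163. For 5 genes the libraries spanned 2 or more. Over the 553 other genes known in all libraries the median span was 2.94. Between-substrate differences made up a median of 65.4% of the variance over the 13 libraries in steady genes and 86.8% in the others. The rule chose on the substrate means, so nothing is read from the lower share or the smaller span of the steady genes. Means of 5 substrates take up 4 of the 12 degrees of freedom of 13 libraries, so part of such a share comes with the number of groups.

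Gene 1345700 varied least over the 13 libraries, with an SD of 0.12. Its libraries stood at 8.88, 9.06 and 8.99 on maltose, 8.99 and 9.04 on cellulose and 9.11 and 9.08 on wheat straw. They stood at 9.23, 9.01 and 9.32 on pine, and at 8.91, 9.10 and 9.07 on aspen. The wheat straw libraries lay just above those of maltose and cellulose, the other substrates overlapped one another, and the largest difference, pine minus maltose, was 0.21 (standard error, SE, 0.13). These values came from 200 reads in the shallowest library to 818 in the deepest. Gene 1258421 was next, with an SD of 0.14 and substrate values of 9.60 on maltose, 9.52 on wheat straw, 9.39 on aspen, 9.38 on cellulose and 9.28 on pine. Its maltose libraries, at 9.68, 9.53 and 9.58, all lay above its pine libraries, at 9.39, 9.28 and 9.17, a difference of -0.31 (SE 0.12) for pine minus maltose.

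The narrowest range of substrate means did not always go with quiet libraries. Gene 1326946 had the smallest range of all genes, 0.11, with means between 5.07 on maltose and 5.18 on aspen. Its libraries stood at 4.75, 5.32 and 5.14 on maltose, 5.32 and 5.03 on cellulose and 4.67 and 5.59 on wheat straw. On pine they stood at 5.53, 4.86 and 5.09, and on aspen at 5.87, 5.08 and 4.60. These single values spanned 1.26 log2 units and came from 11 to 66 reads, and the SE of aspen minus maltose was 0.36. The range was 0.52 and 0.51 without wheat straw libraries 1 and 2, 0.40 and 0.33 without aspen libraries 3 and 1, and between 0.10 and 0.25 without any of the others. Gene 1368663 had the second smallest range among genes with a mean of at least 5, 0.14, from 264 to 1273 reads. Its libraries stood at 9.28, 9.60 and 9.63 on maltose, 9.31 and 9.45 on cellulose and 9.45 and 9.42 on wheat straw. On pine they stood at 9.74, 9.31 and 9.36, and on aspen at 9.24, 9.48 and 9.37. All 13 lay within 0.50 of each other, and the range was 0.25 without maltose library 1.

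At the other end, gene 1325613 varied most among steady genes with a mean of at least 5, with an SD of 0.75 over the 13 libraries. Pine library 1 held 70 reads of it, at 6.64, and the other pine libraries 25 and 15, at 4.86 and 4.13. On aspen it stood at 4.43, 4.92 and 3.90, and on maltose at 4.87, 5.39 and 5.95. The cellulose libraries stood at 5.35 and 5.45 and the wheat straw libraries at 4.91 and 5.67. The libraries overlapped between most substrates, and aspen minus maltose was -0.98 (SE 0.56), which did not pass the test. The range of its means passed 1 when any of 5 libraries was left out, reaching 1.33 without pine library 3. The others were maltose library 1 (1.253), cellulose library 1 (1.03), wheat straw library 1 (1.254) and aspen library 2 (1.24). Gene 1021001 was also high in pine library 1, at 8.04 against 6.52 and 6.65 in the others. Elsewhere it stood at 6.81 and 6.61 on wheat straw, 6.24, 6.71 and 6.43 on aspen, 6.23 and 6.18 on cellulose, and 5.90, 6.34 and 6.09 on maltose. Its range was 0.96, and 0.60 without pine library 1. It was 1.24 and 1.17 without pine libraries 2 and 3, and 1.08 without maltose library 2. Pine library 1 gave the highest of the pine values for 94 of the 193 steady genes known on pine (48.7%), against 55.2% of the 601 other genes.

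**Figure D3:**
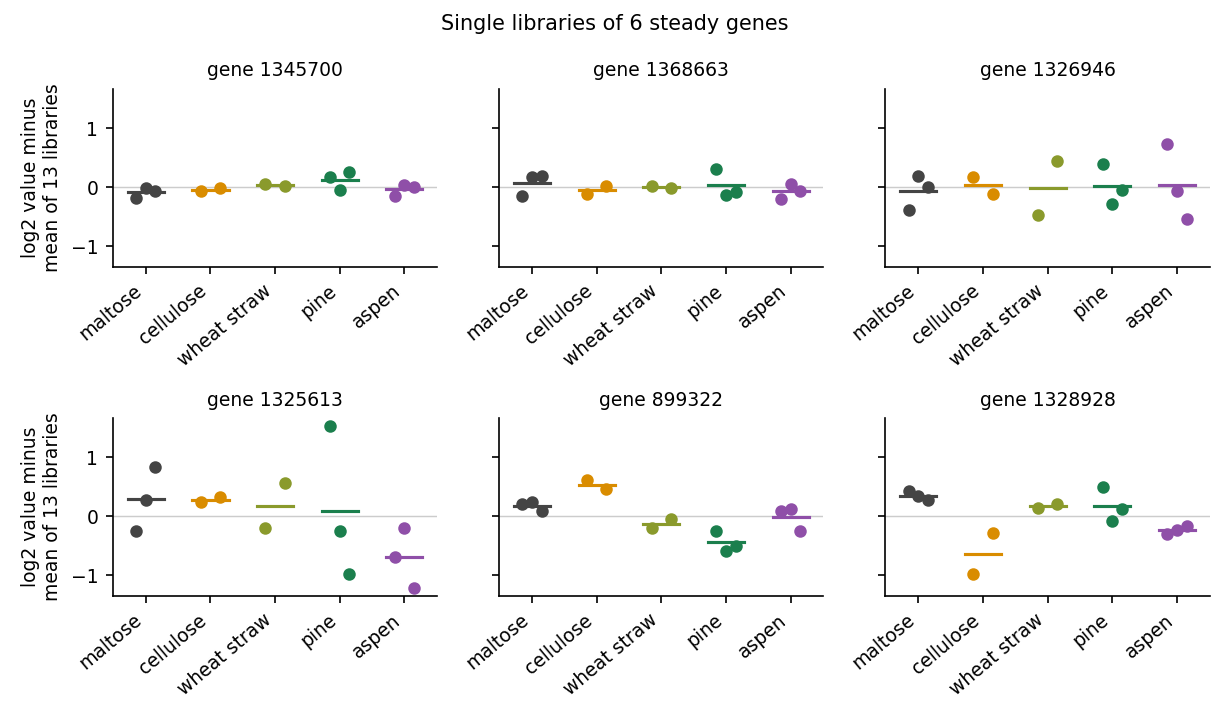
Each panel shows a steady gene, each point a library and each bar the mean of a substrate, as the log2 value minus the gene's mean over its 13 libraries. Gene 1345700 stays within 0.44 log2 units, gene 1326946 has level means with scattered libraries, and pine library 1 stands high for gene 1325613. The pine and cellulose libraries of gene 899322 do not overlap, nor do the maltose and cellulose libraries of gene 1328928. The cellulose libraries of gene 1328928 lie apart from each other, and library 2 lies among its aspen libraries.

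The genes with the most reads could be followed on fewer libraries. Gene 1330293 had the highest mean, with 17.25 on pine, 16.98 on aspen, 16.85 on maltose, 16.72 on cellulose and 16.29 on wheat straw. Its cellulose libraries held 117284 and 125132 reads, at 16.73 and 16.70, and its wheat straw libraries 105051 and 109122, at 16.34 and 16.25. The difference of 0.96 between pine and wheat straw (SE 0.19) is close to the threshold, and the range was 1.003 without wheat straw library 1. Gene 1323872 followed, at 16.44 on maltose, 15.90 on pine, 15.85 on cellulose, 15.81 on wheat straw and 15.71 on aspen. Its cellulose libraries lay apart, with 42963 and 103092 reads at 15.28 and 16.42, and the range grew from 0.73 to 1.16 without cellulose library 2. Its wheat straw libraries held 69258 and 84576 reads, at 15.74 and 15.88. For both genes the spread on maltose, pine and aspen is not known. Their SEs come from the 4 known libraries moderated by the trend over all genes.

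Differences between the substrates remained within the steady genes, below the threshold that chose them. By limma's F test over the 5 substrates, 103 of the 229 steady genes had an adjusted p below 0.05 (44.98%), beside 81.0% of all 1052 genes. With median centring 190 did (83.0%, beside 89.4% of all genes), and with quantile normalisation 162 (70.7%, beside 83.5%). In at least 1 of the 10 pairs of substrates, without a threshold of size, 166 of them did (72.5%), beside 91.1% of all genes. The F test and the pairs compare the same means as the rule, so nothing is read from the lower shares. Pairs are not ranked by the number of genes that passed, because they differ in library number. The median SE of a difference in a steady gene was 0.19 between the substrates with 3 libraries. It was 0.21 between a substrate with 3 libraries and one with 2, and 0.23 between cellulose and wheat straw. The median half-width of the 95% interval lay between 0.43 and 0.52.

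That width matters for how firmly a gene can be called steady. The 95% limma intervals of all 10 differences lay within 1 log2 unit of 0 for 51 of the 229 genes (22.3%). For the other 178 genes at least 1 interval reached past 1 log2 unit. The 51 genes had a median range of 0.45 and a median mean value of 9.81, against 0.77 and 7.88 for the 178. These intervals are given as a description of the error, since the differences had been chosen to be small.

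Among the steady genes with called differences, those with the largest differences in each direction show how far a gene could move inside the rule. Gene 1436490 stood at 6.16, 6.46 and 6.28 in the maltose libraries and 7.33, 7.43 and 7.13 in the aspen libraries, which did not overlap. The wheat straw libraries stood at 7.27 and 7.21, the pine libraries at 7.45, 6.81 and 6.90, and the cellulose libraries at 6.42 and 6.61. The gene was higher on aspen than on maltose by 1.00 (SE 0.19), and its range was 1.08 without maltose library 2 and 1.09 without aspen library 3. Gene 1280980 was higher on pine, at 12.87, than on cellulose, at 11.91, by 0.96 (SE 0.19). Its cellulose libraries stood at 11.88 and 11.93 and its wheat straw libraries at 12.57 and 12.36, and no other libraries were known for it, so the SE comes from these 4 moderated by the trend over all genes.

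Gene 1328928 was lower on cellulose than on maltose, by a difference of -0.98 (SE 0.22). It stood at 10.65, 10.55 and 10.50 in the maltose libraries and 9.24 and 9.93 in the cellulose libraries, without overlap. The aspen libraries stood at 9.92, 9.99 and 10.05, the wheat straw libraries at 10.35 and 10.42, and the pine libraries at 10.72, 10.14 and 10.33. The range was 0.64 without cellulose library 1, 1.32 without cellulose library 2 and 1.02 without maltose library 3. Gene 899322 was lower on pine than on cellulose, by a difference of -0.98 (SE 0.17). Its cellulose libraries, at 12.15 and 12.01, lay above every other library, and its pine libraries, at 11.30, 10.96 and 11.04, were the lowest along with aspen library 3 at 11.30. The other aspen libraries stood at 11.63 and 11.67, the wheat straw libraries at 11.34 and 11.50, and the maltose libraries at 11.75, 11.78 and 11.63. Its range was 1.05 without cellulose library 2 and 1.08 without pine library 1. These are differences of just under 1 log2 unit with separated libraries, which the range rule counts as steady.

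The rule holds the 5 values of a steady gene close together on the deposited scale, so the following differences and orders are a description. The median difference of steady genes lay between -0.03 and 0.06 in each of the 10 pairs, and over all genes it ran from -0.11 for aspen minus pine to 0.56 for pine minus maltose. Pine was the highest substrate for 64 steady genes, aspen for 55, maltose for 49, cellulose for 39 and wheat straw for 22. Pine was also the lowest for 59, followed by aspen with 52, maltose with 43, cellulose with 38 and wheat straw with 37. Over all genes maltose was far more often the lowest, for 347, than the highest, for 173. The lowest value was on maltose for 18.8% of steady genes and 33.0% of all genes. Both woods lay above the other 3 substrates for 28 steady genes (12.2%, beside 24.0% of all genes) and below them for 22 (9.6%, beside 13.02%). All 3 plant materials lay above both maltose and cellulose for 29 (12.7%, beside 29.1%) and below both for 25 (10.9%, beside 16.7%).

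The sizes of the differences are capped by the rule in every pair, and nothing is read from their order against that of all genes. The median size of a difference, whatever its sign, was largest between aspen and pine in steady genes, at 0.40, with pine and maltose next at 0.39. It was smallest between wheat straw and maltose, at 0.22, and between cellulose and maltose, at 0.23. Over all genes aspen and pine differed by a median of 0.66, against 1.12 for pine and maltose and 0.70 for wheat straw and maltose. Aspen and pine were also the pair that set the range most often, for 40 steady genes, followed by pine and maltose for 38 and aspen and maltose for 31.

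The direction of the difference between the woods went with the read number of the gene. Among the 119 steady genes with a mean below 9, 81 (68.1%) were higher on aspen than on pine, with a median difference of 0.24. Among the 110 with a mean of at least 9, 29 (26.4%) were, with a median of -0.30. Aspen gave the highest value for 25 of the 52 steady genes between 5 and 7, and pine for 10 of the 14 from 13 upward. In single libraries the medians over steady genes between 5 and 7 were 0.18, 0.21 and 0.16 above the gene mean on aspen, and -0.20, -0.09 and -0.02 on pine. Between 11 and 13, where 13 steady genes were known in every library, they were -0.27, -0.14 and -0.23 on aspen and 0.27, 0.02 and 0.10 on pine. The aspen and pine libraries did not overlap in either class, nor below 5 or between 7 and 9. Between 9 and 11, with 56 such genes, they did overlap. There they stood at -0.13, -0.03 and -0.07 on aspen and at 0.16, -0.06 and 0.08 on pine. All genes had the same order, with 62.0% higher on aspen below 9 and 29.3% from 9 upward. After quantile normalisation of the columns the shares of steady genes were 55.5% and 58.2%, without the order by read number. With the order kept, they were 95 of 119 and 44 of 110 genes after median centring, and 75.6% and 37.3% after the median shift.

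**Figure D4:**
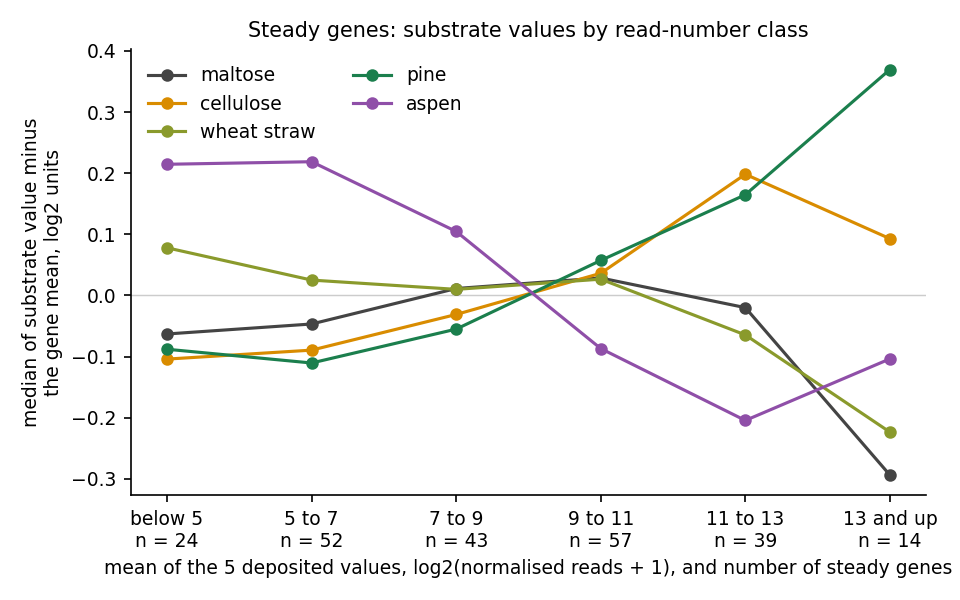
For each substrate and class of read number, points give the median over steady genes of the substrate's value minus the gene's mean over the 5 substrates, in log2 units, with the number of genes under each class. Aspen stands at 0.21 in the lowest class, -0.20 between 11 and 13 and -0.10 from 13 upward, and pine at -0.09, 0.16 and 0.37 in these classes.

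Which genes count as steady depends on how the columns are put on a common scale. The median over all genes was 8.30 on maltose and between 8.92 and 9.30 on the other substrates, while the median of the steady genes lay between 8.73 and 8.87 on each. Centring every column on its median gives 120 genes with a range below 1, of which 76 are among the 229, a share of 33.2% of the 229 and 63.3% of the 120. Under that scaling maltose becomes the highest substrate for 214 of the 229 genes, and their median difference from maltose is -0.93 on pine, -0.92 on wheat straw, -0.82 on aspen and -0.63 on cellulose. Quantile normalisation gives 184 genes, with 116 shared, 50.7% of the 229 and 63.0% of the 184. Shifting each column by the median of its deviations from the means per gene gives 213 genes, with 176 shared, 76.9% of the 229 and 82.6% of the 213. All 4 scalings kept 68 of the 229 genes (29.7%). Among the genes named here, 1326946, 1436490, 1345700, 1021001 and 1280980 are in the 68. Genes 1330293, 1323872, 1368663, 1325613, 1258421, 1328928 and 899322 are not. The deposited table holds 1052 genes and the rule that picked them is not given, so how far its medians stand for all genes of the fungus is not known.

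**Figure D5:**
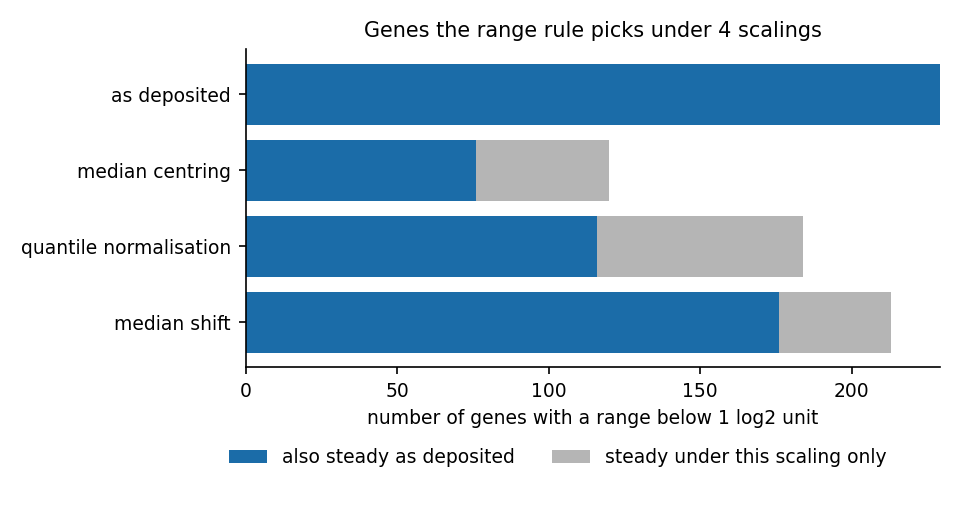
Bars give the number of genes whose 5 values differ by less than 1 log2 unit as deposited and under 3 other scalings, split into genes also steady as deposited (blue) and others (grey). Of the 229 genes, 76 remain under median centring, 116 under quantile normalisation and 176 under the median shift.

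Single libraries had less effect on the membership than the scaling. Among steady genes whose libraries were known on the substrate concerned, between 89.1% (without cellulose library 2) and 98.99% (without aspen library 2) kept a range below 1 when any of the 13 libraries was left out. Maltose library 1, the one with the smallest size factor (0.426), held a median of 114 reads of a steady gene, against 269 and 440 in the other maltose libraries. It gave the highest maltose value for 61 of 196 steady genes (31.1%) and for 303 of 700 other genes (43.3%), and its median deviation from the maltose mean was -0.03 and 0.06 for these groups. Without it, 189 of the 196 genes were still within the threshold.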

How the data were processed

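The authors deposited 1 table of log2 normalised read counts, with 1 column per substrate, per the file headers. TopHat2, HTSeq and DESeq (version 1.5) are named in the submitters' processing notes without role or order. How the 1052 genes were picked, the genome build and the library totals were not given in the sources used here. All members, lists and tests were chosen with earlier results of these data known.

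A deposited log2 value was found to be an average, taken across libraries, of log2(reads × scale + 1). The 16 lowest values of each column gave first scales, which were then refined on solved genes. The 60 lowest values were not left out of that refining. All 60 then came out whole within 1e-09, and 0 of 60 with scales moved by 1%. Reads were solved where 1 set of whole numbers matched, for 1051 genes on wheat straw, 1050 on cellulose, 896 on maltose, 828 on aspen and 794 on pine. Above 6 the search covered a 16-fold range, and 3-library values above 12 were not attempted. Recovery was tested on simulated data. Size factors lay between 0.426 and 1.61, and the median over solved genes lay between 98 and 802 reads per library. The solved genes differ between substrates, so these medians are not of the same genes. Libraries of a substrate differed beyond sampling noise (lowest chi-square 10.3 times its degrees of freedom).

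All 13 libraries entered 1 fit with limma 3.58.1 in R 4.3.3, using substrate means, a trend in the spread and Benjamini-Hochberg adjustment over 1052 genes. Where a substrate's libraries were not solved, the deposited mean was kept and the spread came from the others, moderated by the trend over all genes. The fit was tested on simulated data. Since the unit was 1 log2 mean per substrate, planned tests ran on recovered values. Named genes were the 2 with the highest mean, narrowest range, nearest to the threshold on each side, lowest and highest SD over 13 libraries, and largest called difference per direction, with a mean of at least 5 for ranges and SDs. Alternatives were other scalings, log constants, thresholds, filters and leaving out libraries. Python 3.11.15, NumPy 2.4.6, numba 0.67.0 and matplotlib 3.10.9 were used.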

Additional observations from a re-analysis of the deposited data

How the results depend on the processing

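The number of genes with a range below 1 was 229. It was 124 with a threshold of 0.75, 120 with median centring and 372 with log2(value + 32), which shrinks differences of genes with few reads. It kept within 1.5 times under a wider threshold (328), quantile normalisation (184), the median shift (213), a mean of at least 5 (205) and leaving out any library (189 to 232, on genes known on that substrate). Counted over all 13 single libraries, an alternative chosen after seeing the data, 61 genes had a range below 1, against 188 steady genes known there. The steady genes that passed the F test numbered 103 (44.98%, beside 81.0% of all genes). They numbered 190 with median centring (83.0%, beside 89.4%) and 162 with quantile normalisation (70.7%, beside 83.5%). The median SD between libraries fell from 0.20 to 0.16 with log2(value + 32). When a library of maltose, pine or aspen was left out, between 68 and 88 steady genes passed the F test, on genes known there. On these same genes the main fit passed 84 for maltose, 82 for pine and 87 for aspen. The 68, without pine library 3, were 35.2%, beside 75.3% of all genes known there. The 88, without pine library 1, were 45.6%, beside 79.7%. The number of all genes that passed the F test was 852, and 940 with median centring. Over the 741 genes known in every library 565 passed, as many as in the main fit of the same genes. Leaving out a library of cellulose or wheat straw leaves 1, which is then assumed to vary like the others, so no count of genes passing is given. For the named genes, 44 of 211 ranges under an alternative crossed 1, and the cause was not tested. Depth limits the genes below a mean of 5, where counting error alone gives an SD of 0.32. No paired analysis was possible because the columns carry no replicate numbers.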

Other observations

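In the limma fit, 261 genes had no pair of substrates that passed both conditions, a size of 1 log2 unit or more and an adjusted p under 0.05. The 229 steady genes are among them by construction, and the other 32 had a range of at least 1. These 32 genes had a median range of 1.54 and a median mean value of 3.86. Their median SD between libraries was 0.77, against 0.20 in the steady genes.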
